A study of Homo sapiens with 8 samples.

Results

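The genes described here are families of RNA modification enzymes, apart from the m6A writers METTL3 and METTL14 and the eraser ALKBH5. They were read out of RNA sequencing of human leukaemia cells with and without METTL14 knockdown. Members were every gene listed in both deposited tables whose symbol begins with METTL, NSUN, TRMT, PUS, ADAT, ALKBH or FTSJ, leaving out METTL3, METTL14 and ALKBH5. This gave 68 genes of the 16726 listed. The rule works on symbols, so the set holds more than RNA enzymes. In a grouping by substrate, 18 members act on proteins, DNA or other molecules or have no known substrate, 3 members are pseudogenes (NSUN5P1, NSUN5P2 and, among those 18, METTL21EP) and 1 is the antisense transcript ALKBH3-AS1.

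NB4 and MM6 (MonoMac 6) are long-established human lines of acute myeloid leukaemia, NB4 of a promyelocytic and MM6 of a monocytic kind. The labels write acute monocytic leukemia for NB4 as well as for MM6. Cells of each line carried 1 of 2 lentiviral pLKO.1 hairpins, either shM14-#2 against METTL14 or the non-specific control shNS, and all were selected in puromycin at 0.5 µg/mL. Poly(A) RNA was sequenced in 2 libraries for each of the 4 groups, 8 libraries in all, as single-end reads of 50 bp. The knockdown rests on 1 hairpin, a second hairpin was not analysed here, and the labels do not say whether the libraries of a group were separate cultures, so p-values measure the spread between these libraries only.

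Most members act on tRNA or rRNA. tRNA methyltransferases place methyl groups on bases or riboses of tRNA and tune its folding, its stability and its reading of codons. NSUN enzymes methylate carbon atoms of cytosine, pseudouridine synthases turn uridine into its C-glycoside isomer, ADAT enzymes deaminate adenosine of tRNA to inosine, and ALKBH enzymes are iron-dependent dioxygenases, some of which remove methyl groups from nucleic acids or modify tRNA further. METTL14, the target of the hairpin, works with METTL3 to write m6A, mostly on mRNA.

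Libraries held 23272126 to 28814911 reads, and 16185 to 16403 of the listed genes were detected in each. METTL14 (gene 57721) was at 14.1 and 12.5 RPKM (reads per kilobase of gene model, scaled to the reads of the library) in the NB4 controls and at 8.35 and 8.35 in the NB4 knockdown, and at 12.5 and 13.4 in the MM6 controls against 6.54 and 6.55. Of the myeloid markers, MPO was at 2400 and 2490 RPKM in NB4 controls, and LYZ at 9206 and 5836 RPKM in MM6 controls. Markers of other cells were not all at 0: CD3D lay between 44.95 and 60.6 RPKM in NB4 and at most at 0.0566 in MM6, EPCAM lay between 9.27 and 10.2 RPKM in NB4, and COL1A1 was at most at 0.652 RPKM in any library. The summed level of 7 monocyte markers was 50.6 and 52.4 RPKM in NB4 controls against 142 in both NB4 knockdown libraries, and 5903 and 9302 in MM6 controls against 8264 and 14468 in the MM6 knockdown. That of 5 promyelocyte granule genes was 2567 and 2666 against 2318 and 2361 in NB4, and 4368 and 4551 against 4636 and 5021 in MM6. These sums follow their most abundant genes, and their members did not all go the same way. In both lines CTSG (-84.4% and -74.1% of the mean in NB4 and MM6), MPO (-12.7% and -40.9%) and AZU1 (-16.6% and -25.8%) were lower in both knockdown libraries than in both controls, while PRTN3 was higher (184% and 30.1%). All 7 monocyte genes were higher without overlap in NB4, and all but LYZ and CD68 in MM6. Of all genes tested in MM6, 19.0% were higher without overlap. Over both lines, 10.6% of all genes were higher in both and 14.8% lower in both. The share for NB4 alone was not counted. The part of these shifts in the members' values was not tested, and in bulk RNA fewer cells of a type and less RNA per cell cannot be told apart. ELANE, a promyelocyte gene, was at 6.83 and 6.45 RPKM in replicate 2 of the NB4 control and knockdown and at 0.0462 and 0.0387 in replicate 1 of each. In MM6 ELANE was far more abundant, at 1599 and 1709 RPKM in the controls and at 2275 and 2410 in the knockdown. There it was 41.6% higher, without overlap, as PRTN3 was.

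Nearly all members were expressed. In every library 61 of the 68 were at 1 RPKM or more; 4 reached it in some libraries only (ADAT3, METTL20, METTL7B and NSUN7), and 3 stayed under it throughout (ALKBH3-AS1, METTL21EP and NSUN5P2). The median member was at 7.24 RPKM in the NB4 controls and 7.54 in the MM6 controls. Changes are shM14 minus shNS on the scale log2(RPKM + 1), fitted with limma over all genes with at least 1 RPKM in 2 libraries, and "called" means a Benjamini-Hochberg adjusted p under 0.05. This scale understates the change of genes at a low RPKM.

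In NB4 cells a minority of the enzymes were called, with small changes in both directions. Members that were not called are not shown to be unmoved. Of 61 members tested, 7 rose and 8 fell. METTL9, METTL2B, TRMT6, METTL4, TRMT2B, METTL2A and FTSJ2 rose, by 0.15 to 0.49 in log2. METTL8, METTL23, TRMT13, METTL22, TRMT5, ALKBH3, ALKBH8 and ALKBH6 fell, with changes of -0.26 to -0.37. Over all 11531 genes tested in NB4, 22.1% rose, 25.2% fell and 47.4% were called in either direction, beside 24.6% of the members; this gap was not tested. The median change of the members was -0.02 beside -0.01 for all genes, and the median size of their change, sign left out, was 0.10 beside 0.18. The 46 members that did not pass had changes from -0.33 (METTL21B) to 0.23 (PUSL1). All 15 calls were also past 0.05 and in the same direction in the authors' deposited table, where 20 of the 68 members and 43.6% of all listed genes passed in NB4.

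**Figure D1:**
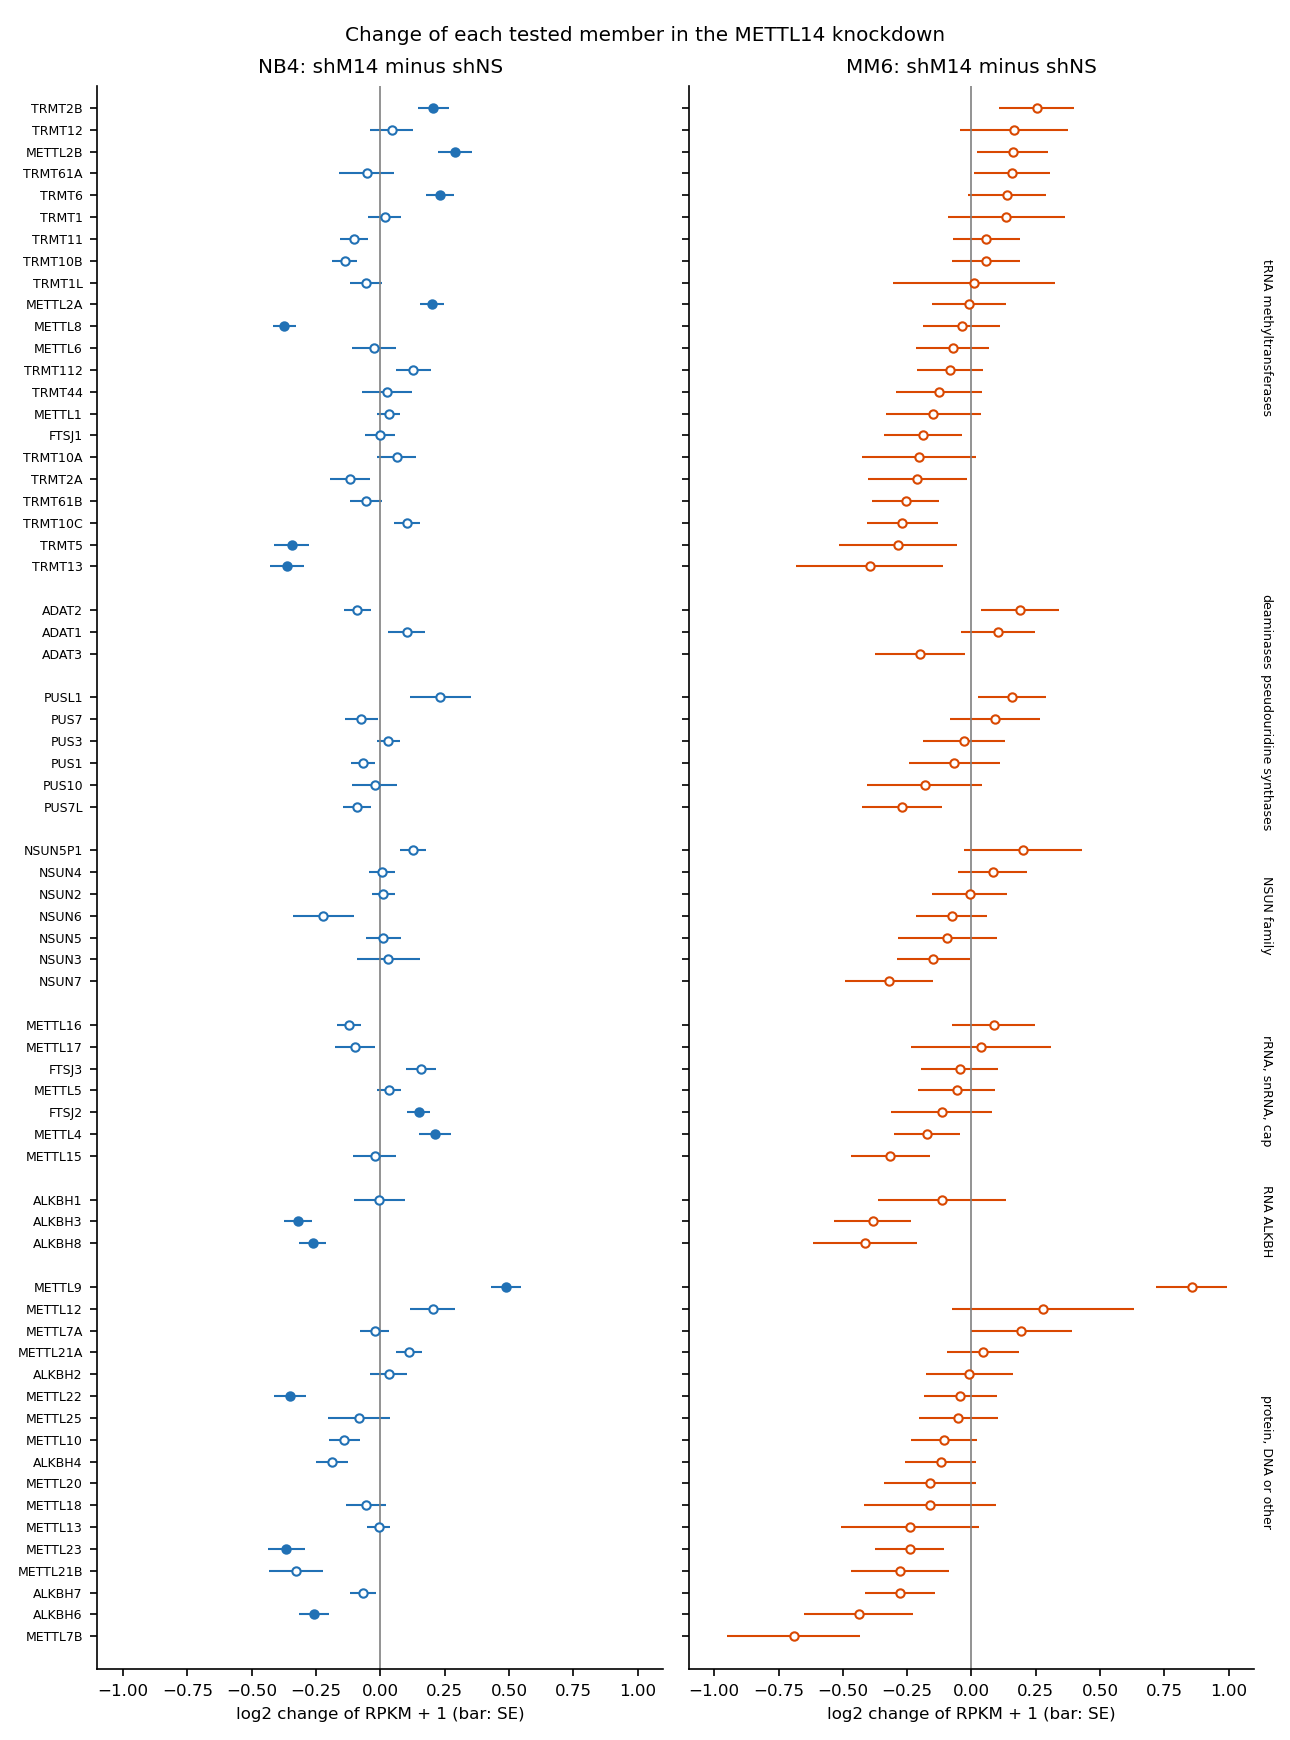
Change of each tested member in the METTL14 knockdown, as the log2 difference of RPKM + 1 between 2 shM14 and 2 shNS libraries (horizontal axis), in NB4 (left, 61 members) and MM6 (right, 65 members), grouped by role on the right edge. Bars are the moderated SE and filled points are past an adjusted p of 0.05; 15 points are filled in NB4 and 0 in MM6, where the bars are wider.

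In MM6 no member was called in the fit of that line alone (0 of 65). At an unadjusted p under 0.05 there were 3, namely METTL9, METTL7B and ALKBH3, where 1779 of the 11895 genes tested were under it, and the changes of the 65 ran from -0.69 (METTL7B) to 0.86 (METTL9). The background was nearly as empty, with 0.0757% of 11895 genes called. The spread between replicates was wider than in NB4. The SD of the difference between the 2 control libraries over genes was 0.35 in MM6 and 0.15 in NB4, on the log2 scale. In MM6 the replicate differences of knockdown and control went together over genes (r = 0.70, and 0.08 in NB4), which this fit does not take out. With the replicate number as a block, METTL9 and METTL7B were called in MM6 (limma adjusted p = 0.00968 and 0.0181). The labels do not say that this number pairs libraries. Counted by libraries that do not overlap, 7 of 65 members had both MM6 knockdown libraries above both controls and 17 had both below, where all genes gave 19.0% and 25.8%. In the authors' deposited table METTL9 was the only member past 0.05 in MM6, where 3.28% of all listed genes passed.

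Fitted over both lines with the line as a covariate, 3 of 65 members were called: METTL9 rose, and ALKBH3 and METTL23 fell. Of all 12804 genes, 4.80% rose and 7.10% fell. By libraries that do not overlap, 4 members (METTL2B, METTL9, PUSL1 and TRMT2B) were higher in the knockdown in both lines and 8 (ALKBH3, ALKBH4, ALKBH6, ALKBH7, ALKBH8, METTL10, METTL23 and PUS7L) were lower in both, where 10.6% and 14.8% of all genes did so. No member was called for a difference between the lines (0 of 65, limma interaction, with 4 at an unadjusted p under 0.05: METTL9, METTL4, METTL8 and TRMT10C). For that difference 2.92% of all genes were called, and 2511 of 12804 were at an unadjusted p under 0.05. A member called in NB4 alone is therefore not shown to respond differently in MM6.

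**Figure D2:**
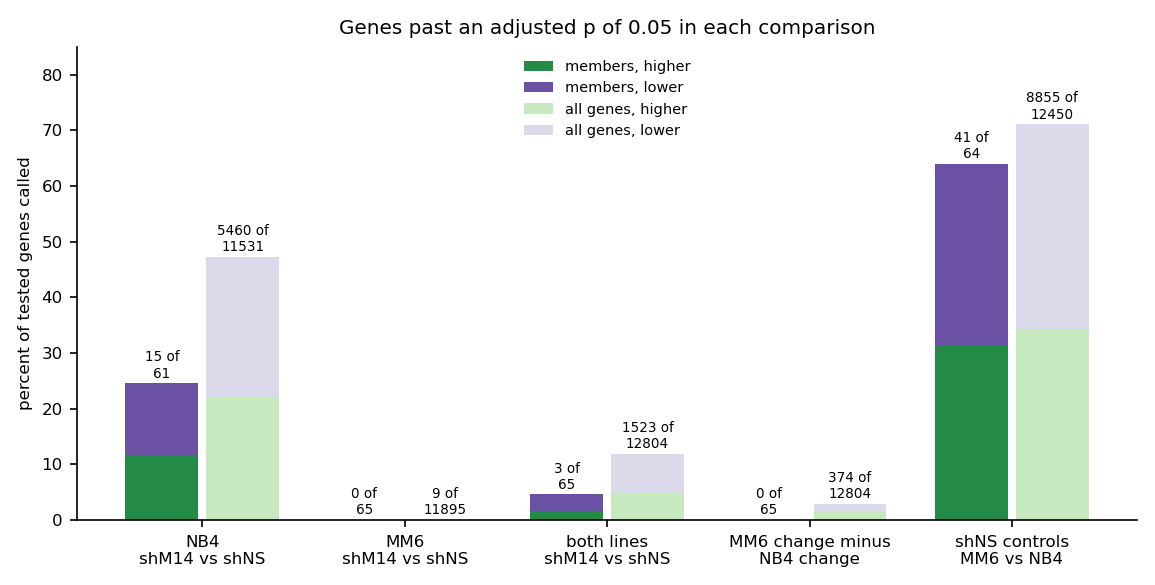
Percent of tested genes past an adjusted p of 0.05 (vertical axis) in each of 5 comparisons, for the members (dark bars) and for all genes (light bars), split into higher and lower; the numbers called and tested stand above each bar. The members' bar is lower than that of all genes in NB4 (15 of 61 beside 5460 of 11531) and similar in the control lines (41 of 64 beside 8855 of 12450).

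The enzymes that act on tRNA as methyltransferases, with their partners, were the largest group, with 22 members, all tested. In NB4 4 rose and 3 fell, beside 22.1% and 25.2% of all genes. The other 15 did not pass, and the median change of the group was 0.01. The paralogs METTL2A and METTL2B, which make 3-methylcytosine in the anticodon loop of cytosolic tRNAs, both rose in NB4. Their transcripts are so alike that short reads do not always tell them apart. In the GENCODE transcripts their coding sequences had 1134 bases each, differed at 15 positions and were 98.7% identical, and 607 of the 1085 coding windows of read length (55.9%) were the same in both. Over whole transcripts, untranslated parts included, 24.9% of the 50-base stretches of METTL2A were also in METTL2B and 14.1% of those of METTL2B in METTL2A. One window that does separate them, coding bases 322 to 371, is shown with the differing bases in capitals (lower case bases are the same in both; METTL2A is on chromosome 17 and METTL2B on chromosome 7):
METTL2A: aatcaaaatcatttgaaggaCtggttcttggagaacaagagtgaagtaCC
METTL2B: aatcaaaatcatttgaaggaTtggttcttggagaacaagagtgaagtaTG
Counted from 1 at the window's first base, with the METTL2A base first, these are C21T, C49T and C50G. How the authors assigned reads that match both genes is not given in the sources used here, so the split between the 2 genes is uncertain.

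METTL2B was at 12.7 and 12.0 RPKM in the NB4 controls and at 14.5 and 16.1 in the NB4 knockdown, a change of 0.29 (SE 0.07, limma adjusted p = 0.0195). METTL2A was at 6.44 and 6.35 against 7.66 and 7.34 (change 0.20, SE 0.05, limma adjusted p = 0.0224). For both genes the groups of NB4 did not overlap. In MM6 METTL2B was at 9.77 and 8.48 RPKM in the controls and 10.5 and 10.1 in the knockdown, whereas METTL2A, at 10.5 and 9.05 against 9.29 and 10.1, overlapped.

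METTL8, a 3-methylcytosine enzyme of mitochondrial tRNA, went the other way from these 2 relatives in NB4. It was at 5.47 and 5.40 RPKM in the controls and at 3.99 and 3.95 in the knockdown, with the smallest p among the members that fell (change -0.37, SE 0.04, limma adjusted p = 0.00303). In MM6 it overlapped, at 3.72 and 3.41 against 3.09 and 3.83 RPKM, a change of -0.04.

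TRMT6, the subunit without catalytic activity in the enzyme that makes 1-methyladenosine in cytosolic tRNA, rose in NB4 from 23.9 and 22.4 RPKM to 26.9 and 27.8 (change 0.23, SE 0.05, limma adjusted p = 0.0209). TRMT2B, a 5-methyluridine enzyme of mitochondrial RNA, rose from 6.38 and 6.36 to 7.90 and 7.12 RPKM (change 0.21, SE 0.06, limma adjusted p = 0.0413). In MM6 TRMT2B was at 2.19 and 2.75 RPKM in controls and at 3.04 and 3.22 in the knockdown, so the groups did not overlap there either, with a change of 0.25 that did not pass. For TRMT6 the MM6 groups overlapped.

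TRMT13, which methylates the ribose of a tRNA acceptor stem residue, fell in NB4 from 7.49 and 6.86 RPKM to 5.12 and 5.59 (change -0.36, SE 0.07, limma adjusted p = 0.0101). In MM6 its change was of the same size, -0.40, but the libraries spread from 5.73 to 8.77 RPKM in the controls and from 3.91 to 6.73 in the knockdown, and the SE was 0.29. TRMT13 shares 10.7% of its 50-base stretches with LRRC39 on the opposite strand; LRRC39 was at 1.80 and 1.53 RPKM in the NB4 controls and at 1.18 and 0.986 in the knockdown. TRMT5, which methylates the guanosine next to the anticodon, fell from 7.73 and 7.04 to 5.32 and 5.88 RPKM in NB4 (change -0.35, SE 0.07, limma adjusted p = 0.0138).

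TRMT10C, a methyltransferase that is also a subunit of mitochondrial RNase P, had the highest mean level of this group. It was at 27.6 and 26.5 RPKM in NB4 controls and 29.8 and 28.5 in the knockdown, and at 60.7 and 59.2 against 52.6 and 46.8 in MM6. Neither change passed (0.10 in NB4 and -0.27 in MM6), nor did the difference between the lines (-0.37, limma adjusted p = 0.16). TRMT61B, which makes 1-methyladenosine in mitochondrial tRNA, was at 5.44 and 5.83 RPKM in MM6 controls and at 4.55 and 4.57 in the knockdown, a change of -0.26 with an adjusted p of 0.438 in limma.

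None of the tRNA deaminases passed in either line, where 47.4% of all genes passed in NB4 and 0.0757% in MM6. ADAT2 and ADAT3 form the enzyme that makes wobble inosine, and ADAT1 deaminates a residue beside the anticodon. ADAT2 was at 8.01 and 7.50 RPKM in NB4 controls against 7.19 and 7.26, and at 14.1 and 14.1 in MM6 controls against 14.7 and 17.9, so it was lower in the knockdown in NB4 and higher in MM6 without a called change (-0.09 and 0.19) or a called difference between the lines (0.28, limma adjusted p = 0.363). ADAT1 had a change of 0.10 in both lines. ADAT3 was tested in MM6 only, where its change was -0.20.

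The pseudouridine synthases were likewise without a call among 6 tested in each line, beside 47.4% of all genes in NB4 and 0.0757% in MM6. PUS1, a nuclear and mitochondrial synthase with tRNA and mRNA targets, was the most abundant, at 33.5 and 34.3 RPKM in NB4 controls and 32.5 and 32.1 in the knockdown. PUSL1, a family member found in mitochondria, was higher in the knockdown in both lines, at 8.47 and 11.1 against 11.8 and 11.3 RPKM in NB4 and at 11.0 and 12.1 against 12.8 and 13.2 in MM6 (changes 0.23 and 0.16, limma adjusted p = 0.163 and 0.677). PUS7L was lower in both lines, at 6.30 and 6.08 against 5.98 and 5.53 RPKM in NB4 and at 4.27 and 4.08 against 2.88 and 3.73 in MM6, and did not pass either.

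No NSUN gene was called among 6 tested in NB4 and 7 in MM6, beside 47.4% and 0.0757% of all genes. NSUN2, which makes 5-methylcytosine in tRNA and other RNA, had the highest mean level of the family and lay close together in all libraries of a line. It was at 82.8 and 81.6 RPKM in the NB4 controls and 83.0 and 82.6 in the knockdown (change 0.01, SE 0.04), and at 31.7 and 37.3 against 33.7 and 34.8 in MM6 (change -0.01, SE 0.15). NSUN6, a tRNA acceptor end methyltransferase, was at 5.04 and 3.77 against 3.49 and 3.72 RPKM in NB4 (change -0.22). NSUN7 was at 2.98 and 2.07 against 1.83 and 1.77 RPKM in MM6 (change -0.32), and NSUN3, an enzyme of mitochondrial tRNA, at 5.79 and 6.79 against 5.47 and 5.66 (change -0.15); none of these passed. The pseudogene NSUN5P1 had changes of 0.13 and 0.20 and shares 28.8% of its 50-base stretches with POM121, so its reads are uncertain.

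Of 7 enzymes with rRNA or snRNA targets, 2 rose in NB4 and 0 fell, beside 22.1% and 25.2% of all genes. METTL4, an adenosine methyltransferase of snRNA, rose in NB4 from 4.03 and 3.75 RPKM to 4.45 and 4.90 (change 0.21, SE 0.06, limma adjusted p = 0.0407). In MM6 it was at 7.28 and 7.38 against 6.26 and 6.51 RPKM, below the controls (change -0.17, not called), and the difference between the lines, -0.39, had an adjusted p of 0.129 in limma. FTSJ2, a ribose methyltransferase of mitochondrial rRNA, rose in NB4 from 34.9 and 35.1 RPKM to 39.4 and 38.4 (change 0.15, SE 0.05, limma adjusted p = 0.0466), and its MM6 groups overlapped. METTL15, a cytosine methyltransferase of mitochondrial rRNA, was at 5.86 and 4.97 against 3.79 and 4.52 RPKM in MM6 (change -0.32, not called).

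The 3 ALKBH enzymes with RNA substrates had 2 that fell in NB4, where 25.2% of all genes fell. ALKBH3 removes methyl groups from RNA and from alkylated DNA, and it was lower in the knockdown in both lines. It was at 9.91 and 9.51 RPKM in NB4 controls and 7.31 and 7.86 in the knockdown, a change of -21.9% of the mean and of -0.32 in log2 (SE 0.06, limma adjusted p = 0.00882). In MM6 it was at 13.2 and 15.04 against 9.85 and 11.3 RPKM, a change of -25.1% and of -0.38 (SE 0.15, limma adjusted p = 0.324). In both lines the 2 knockdown libraries lay below the 2 controls, and over both the change was -0.35 (SE 0.08, limma adjusted p = 0.024). The transcript from the other strand, ALKBH3-AS1, was at 0.0627 to 0.252 RPKM in all 8 libraries. ALKBH8, which combines a dioxygenase and a methyltransferase to modify wobble uridine, fell in NB4 from 4.23 and 4.07 to 3.40 and 3.18 RPKM (change -0.26, SE 0.05, limma adjusted p = 0.013). In MM6 it was at 3.69 and 5.17 against 2.60 and 3.53 RPKM, also without overlap (change -0.41, not called). ALKBH1 had no call in either line, with changes of 0.00 and -0.11.

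**Figure D3:**
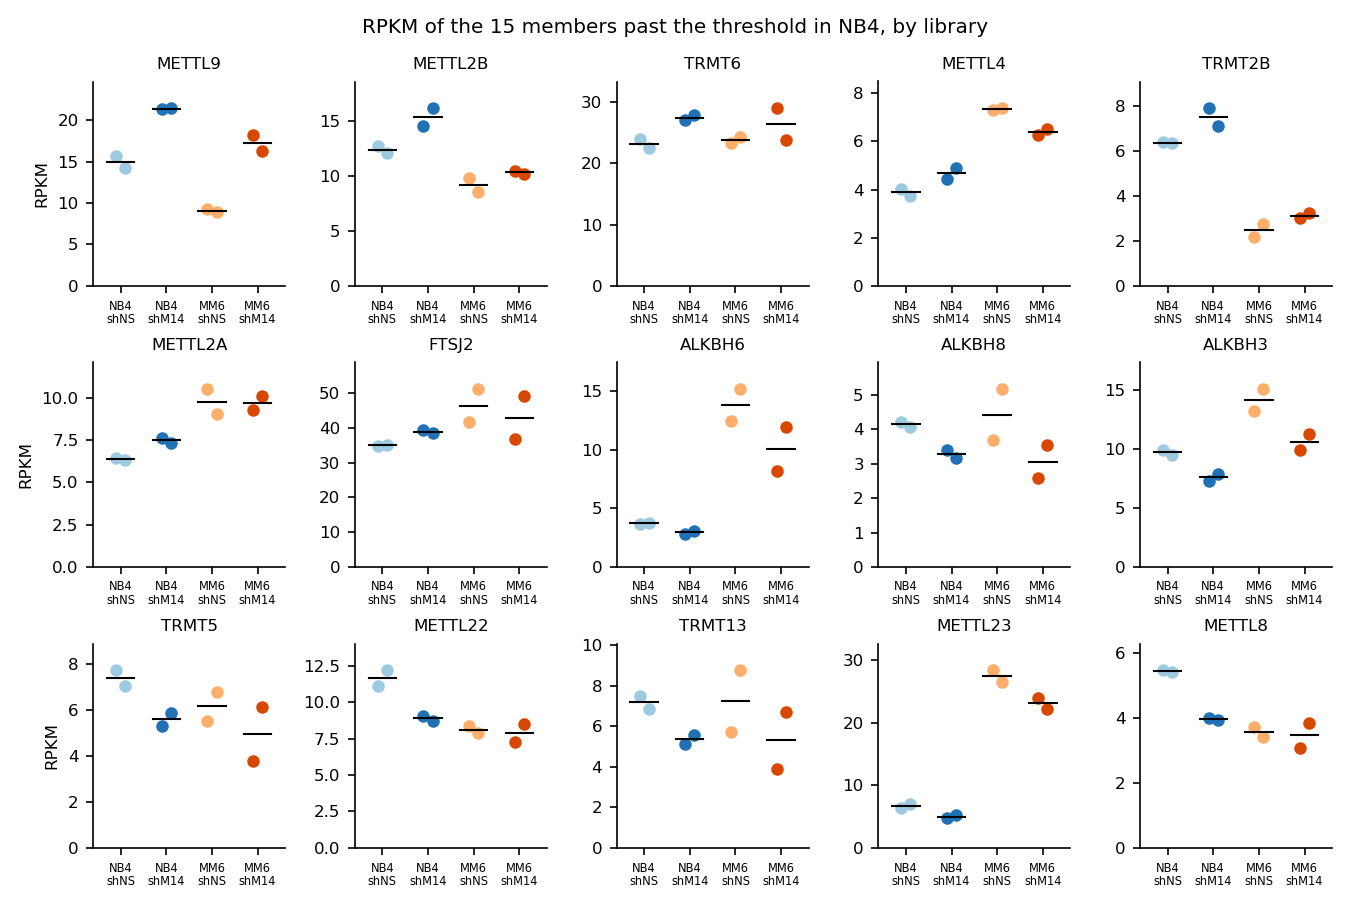
RPKM in each of the 8 libraries (points) and the mean of each group (lines) for the 15 members past the threshold in NB4; every vertical axis starts at 0. METTL9 is higher and ALKBH3, ALKBH6, ALKBH8 and METTL23 are lower in both knockdown libraries of both lines, whereas METTL4 lies above the controls in NB4 and below them in MM6.

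METTL9, a methyltransferase of histidine in proteins and so not an RNA enzyme, had the largest change of any member in both lines. It was at 15.7 and 14.3 RPKM in the NB4 controls and at 21.3 and 21.4 in the knockdown, 42.8% higher (change 0.49, SE 0.06, limma adjusted p = 0.00317). In MM6 it was at 9.26 and 8.86 RPKM in the controls and at 18.2 and 16.2 in the knockdown, 90.2% higher (change 0.86, SE 0.14, limma adjusted p = 0.0986). All 4 knockdown libraries lay above all 4 control libraries. Over both lines the change was 0.67 (SE 0.09, limma adjusted p = 0.0061), and the difference between the lines was 0.37 (limma adjusted p = 0.18). METTL9 hosts the gene IGSF6 on the opposite strand; IGSF6 was at 0.233 to 0.700 RPKM in all 8 libraries and shares 1.14% of the 50-base stretches of METTL9.

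METTL23, a methyltransferase reported to act on histone arginine, fell in NB4 from 6.31 and 7.08 RPKM to 4.74 and 5.20 (change -0.37, SE 0.07, limma adjusted p = 0.0132). In MM6, where it was far more abundant, it was at 28.4 and 26.5 against 24.1 and 22.2 RPKM (change -0.24, not called). Over both lines the change was -0.30 (SE 0.07, limma adjusted p = 0.0357). METTL22, a lysine methyltransferase of proteins, fell in NB4 from 11.1 and 12.2 to 9.08 and 8.73 RPKM (change -0.35, SE 0.06, limma adjusted p = 0.00896) and overlapped in MM6. ALKBH6, a member of the dioxygenase family whose substrates are little known, fell in NB4 from 3.69 and 3.75 to 2.80 and 3.11 RPKM (change -0.26, SE 0.06, limma adjusted p = 0.0186), and in MM6 was at 12.5 and 15.2 against 8.19 and 11.9. ALKBH6 shares 20.4% of its 50-base stretches with the transcript AC002116.1, so its count is less certain.

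Several of these calls changed with the libraries or the model used. Leaving out 1 library also leaves a group with a single library. The share of all genes called in these other fits is not set beside the counts. A loss of calls common to all genes and one particular to the members can therefore not be told apart here. With NB4 knockdown replicate 1 left out, 6 members were called in NB4 in place of 15, and with NB4 knockdown replicate 2 left out, 9; METTL9, METTL8, METTL22 and TRMT13 remained called whichever NB4 library was left out, and FTSJ2 and METTL4 passed in 0 of those 4 fits. With all 8 libraries in 1 model, METTL9 and METTL23 were the only members called in NB4; METTL8, METTL22 and TRMT13 had adjusted p values of 0.0543, 0.0618 and 0.383. Over both lines METTL9 passed in each of the 8 fits with 1 library left out, ALKBH3 in 4 (its adjusted p was 0.0629 to 0.0871 without any 1 of the NB4 libraries) and METTL23 in 2.

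Among the other RNA modification enzymes, a list of 78 genes that the symbol rule does not take, 16 rose and 16 fell in NB4 out of 78 tested (41.0%), beside the 47.4% of all genes. Their median change was 0.02. CTU2, which helps to place sulphur on wobble uridine, was at 9.22 and 10.4 RPKM in NB4 controls and 14.3 and 15.8 in the knockdown (change 0.57, limma adjusted p = 0.00452). WDR4, the partner of METTL1 in the enzyme that makes 7-methylguanosine in tRNA, rose by 0.43, and NOP10, a protein of the box H/ACA pseudouridylation particle, rose by 0.42. CMTR1, the mRNA cap ribose methyltransferase, was at 46.0 and 46.1 against 34.1 and 34.4 RPKM (change -0.42, limma adjusted p = 0.00219). ADAR, which deaminates adenosine in double-stranded RNA, changed by -0.38 and OSGEP, the catalytic subunit of the tRNA threonylcarbamoyl complex, by -0.35. In MM6 0 of 77 were called by limma, with 3 at an unadjusted p under 0.05, beside 1779 of all 11895 genes. Over both lines 1 rose (CTU2) and 4 fell (ADAR, CMTR1, HENMT1 and TARBP1), beside 4.80% and 7.10% of all genes.

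As among all genes, more members differed between the lines than between the knockdown and control cells of either line. In a comparison of the shNS libraries, MM6 minus NB4, 41 of 64 members were called, 20 higher in MM6 and 21 lower. Over all 12450 genes 34.3% were higher and 36.8% lower in MM6. The median size of the members' difference was 0.49 in log2 beside 0.61 for all genes. These control libraries are the same ones used in the knockdown comparisons.

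METTL7B separated the lines most. It encodes a membrane-bound methyltransferase that acts on thiols, not on RNA. In the NB4 controls it had 0 and 2 reads, that is 0 and 0.0461 RPKM, and in the NB4 knockdown 0 reads in both libraries, where 3 reads would have given 0.0712 and 0.0803 RPKM. In MM6 it was at 59.4 and 91.4 RPKM in the controls and 38.9 and 52.7 in the knockdown, the highest control level of any member in that line. Per read of depth the MM6 controls held 2992 times the NB4 controls, with an exact 95% interval from 828 to 24708 that covers counting error only. The lower level in the MM6 knockdown did not pass (change -0.69, SE 0.26, limma adjusted p = 0.313). METTL7B was called in MM6 and for the difference between lines when the replicate number was used as a block. The labels do not tie that number to a shared culture or day.

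NSUN7 and ADAT3 were also near the lower end in NB4 and expressed in MM6. NSUN7, an NSUN protein with a little known target, was at 0.0462 and 0.0281 RPKM (4 and 3 reads) in NB4 controls and at 2.98 and 2.07 in MM6 controls (difference 1.75, SE 0.15, limma adjusted p = 0.000359). ADAT3 was at 0.762 and 0.918 against 4.88 and 6.09 RPKM (difference 1.81, SE 0.12, limma adjusted p = 0.000207). ADAT3 lies within SCAMP4 transcripts and shares 29.6% of its 50-base stretches with SCAMP4 on the same strand; SCAMP4 was at 10.9 and 10.7 RPKM in NB4 controls and 26.9 and 25.5 in MM6 controls. METTL23 and ALKBH6 were also higher in MM6, by 1.89 and 1.65.

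In the other direction, ALKBH2, which repairs alkylated DNA, was at 14.6 and 16.7 RPKM in NB4 controls and 4.88 and 5.48 in MM6 controls (difference -1.43, SE 0.11, limma adjusted p = 0.000284). PUS7, a synthase with tRNA and mRNA targets, was at 28.7 and 26.0 against 9.32 and 10.9 RPKM (difference -1.36). NSUN2 differed by -1.23, TRMT2B by -1.09 and TRMT112, the activating partner of several methyltransferases, by -0.90, from 41.1 and 45.9 to 22.4 and 23.1 RPKM. All 5 kept their call whichever control library was left out.

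**Figure D4:**
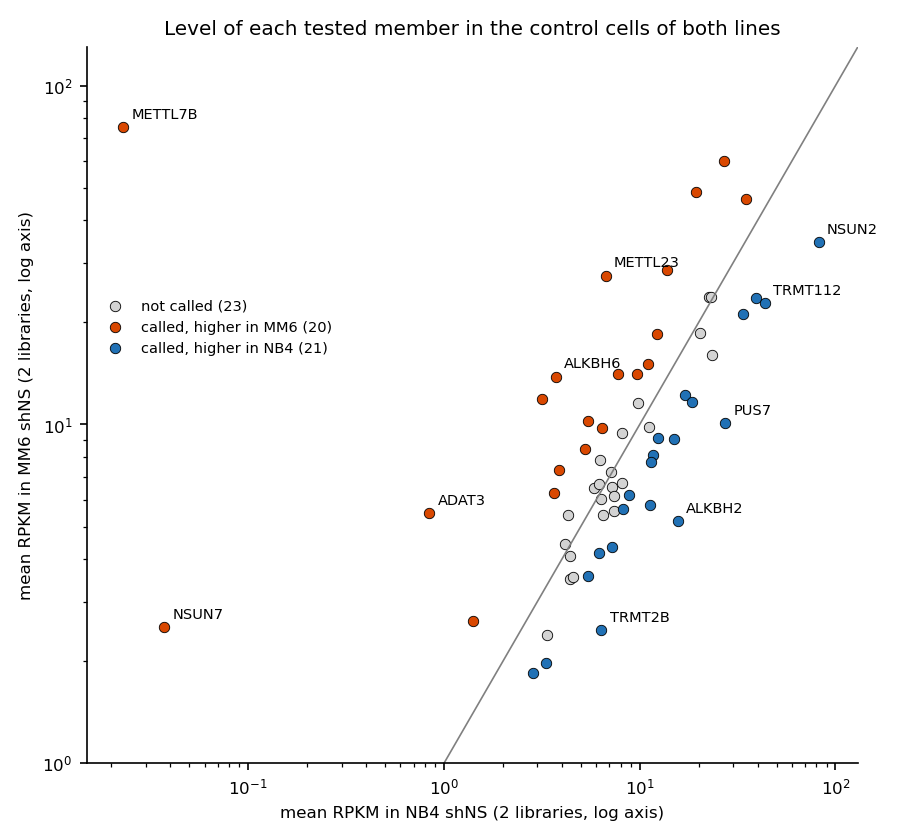
Mean RPKM of each of the 64 members tested in the control comparison, in NB4 shNS (horizontal axis) and MM6 shNS (vertical axis), 2 libraries each, on log axes; the grey line marks equal levels. Of these, 20 are called higher in MM6 (orange), 21 higher in NB4 (blue) and 23 not called (grey); METTL7B and NSUN7 lie far to the left, near 0 RPKM in NB4.

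The windows before the starts of METTL7B, the member with the largest difference between lines, and METTL9, the member with the largest change in the knockdown, are shown for their CpG content. Sequences are the 250 bases before the start in RefSeq, build GRCh38.p14, + strand, with each CG in capitals (CG reads the same on both strands). RefSeq gives METTL9 2 starts, and the one with more CG is printed.
METTL7B, chr12:55681486-55681735: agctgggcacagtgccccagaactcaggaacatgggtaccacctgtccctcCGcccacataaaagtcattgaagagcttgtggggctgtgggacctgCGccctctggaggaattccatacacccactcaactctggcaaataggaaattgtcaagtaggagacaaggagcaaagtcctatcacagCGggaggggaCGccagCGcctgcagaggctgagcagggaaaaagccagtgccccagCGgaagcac
METTL9, chr16:21599327-21599576: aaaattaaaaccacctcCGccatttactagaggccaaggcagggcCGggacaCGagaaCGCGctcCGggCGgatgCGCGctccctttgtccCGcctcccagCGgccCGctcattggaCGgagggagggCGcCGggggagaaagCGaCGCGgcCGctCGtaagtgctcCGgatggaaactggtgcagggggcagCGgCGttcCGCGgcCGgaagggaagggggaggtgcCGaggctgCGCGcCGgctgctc
METTL7B has 6 CG in this window. METTL9 has 30 before the start shown and 6, as many as METTL7B, before its other start (chr16:21596958-21597207), and which start these cells use was not measured. Among 54 members matched by gene ID the median was 19.5, and among 12714 listed genes it was 22, taking for each gene its start with the most CG. Windows with 6 or fewer made up 5.56% of members and 13.1% of listed genes, and those with 30 or more 3.70% and 23.4%. DNA methylation and chromatin were not measured, so the counts are a description of the windows.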

How the data were processed

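Poly(A) RNA of 8 libraries was sequenced, 2 for each of 4 groups. The authors deposited 1 table per cell line. The sources used here name no aligner, counter, genome build or counted strand, so overlapping genes and close paralogs are less certain. The deposited RPKM values are reads per kilobase scaled to the library's assigned reads, a unit worked out from the values. The deposited signal columns are group means of reads scaled by size factors. The deposited ratio is the fold change of shM14 over shNS, and the deposited log2 column is its log2, per the file headers. The deposited p-value columns hold a raw and a Benjamini-Hochberg adjusted p for each of 16726 rows. RPKM and group means together gave whole reads for 100% of values within 0.01, which set the depth.

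Genes with RPKM of at least 1 in 2 libraries of a fit were tested on log2(RPKM + 1) in limma (3.58.1, R 4.3.3). The moderated tests were two-sided and adjusted over all genes tested. The procedure was also run on simulated reads with each library drawn independently. Those reads do not copy the replicate differences that knockdown and control share in MM6. Each line was fitted alone, both lines additively and with an interaction, and the controls alone. SE is the moderated standard error. Members, role groups, lists and tests were chosen with earlier results of these data known; the group of ALKBH3-AS1 was set after its values were seen. The members named are those called in a knockdown comparison. In each role group they are also the 2 with the smallest p in each line and the one with the highest mean RPKM. In the controls they are the 5 largest called differences each way, and of the other enzymes the 3 smallest p each way in NB4. Shared 50-base stretches were counted over GENCODE v29 transcripts. Alternatives were a pseudocount of 0.1, no filter, RPKM of at least 2, a replicate block, median-of-ratios scaling, voom on recovered reads, a variance trend, all 8 libraries in 1 model, and leaving out each library. Summaries used Python 3.11.15, pandas 2.3.3, scipy 1.17.1 and matplotlib 3.10.9.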

Additional observations from a re-analysis of the deposited data

How the results depend on the processing

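With all 8 libraries in 1 model, 2 members were called in NB4 (METTL9 and METTL23) in place of 15, and 1 in MM6 (METTL9, adjusted p = 0.00446) in place of 0; the cause was not tested. With the replicate number as a block, which the labels do not tie to a shared culture or day, 2 members were called in MM6 (METTL9 at an adjusted p of 0.00968 and METTL7B at 0.0181), 6 over both lines in place of 3 (ALKBH6, ALKBH8 and TRMT13 fell as well) and 1 for the difference between lines (METTL7B, -0.66); in NB4 14 were called and in the controls 42. Differences between replicates correlated between the knockdown and the control with r = 0.70 over genes in MM6 and 0.08 in NB4. Voom on recovered reads called 6 over both lines, and with it or with median-of-ratios scaling METTL23 did not pass (adjusted p = 0.0761 and 0.065). Leaving out 1 library gave 6 to 14 calls in NB4, 0 in MM6, 1 to 7 over both lines, 0 for the difference and 23 to 48 in the controls. The lowest control counts, 23 and 25, came without NB4 control replicates 2 and 1, and the 7 came without MM6 knockdown replicate 2. Where this left a group with 1 library, that library was assumed to vary like the others. All these counts of members stand without the share of all genes called in the same fit. Whether the members gained or lost calls more than other genes did was not tested. Of 645 alternatives of single named members, 577 stayed on their side of the threshold, 59 lost a call, 9 gained one and 0 turned a called direction. The other settings gave 12 to 20 calls in NB4, 0 in MM6, 3 over both lines, 0 for the difference and 38 to 41 in the controls. METTL21EP, NSUN5P2 and ALKBH3-AS1, under 1 RPKM in every library, were left out by the filter on low values and tested without it, where they were not called in any knockdown comparison.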

Other observations

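Subunits of the same enzyme did not always pass together in NB4. The pairs were picked after the values were seen, and neither the pairing nor a difference between partners was tested. TRMT6 rose by 0.23 and its catalytic partner TRMT61A, at 3.86 and 4.97 RPKM in the controls and 4.39 and 4.003 in the knockdown, did not pass (-0.05). WDR4 rose by 0.43, whereas the catalytic METTL1 was at 11.4 and 11.1 against 11.5 and 11.5 RPKM (0.03, not called). ADAT2 had a level of 8.01 and 7.50 RPKM in NB4 controls beside 0.762 and 0.918 for its partner ADAT3.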
